A study of Mus musculus with 22 samples.

Results

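Sphingosine-1-phosphate (S1P) receptors and the oxysterol receptor Gpr183 were followed across conventional dendritic cells (cDCs) of the mouse spleen and mesenteric lymph nodes (MLN). The members, picked by name, were S1pr1, S1pr2, S1pr3, S1pr4, S1pr5 and Gpr183, which make 6 of the 34047 genes in the count table. All cells came from naive Tbx21RFP-cre mice, a knock-in strain in which the Tbx21 gene, encoding the transcription factor T-bet, drives a red fluorescent reporter and Cre. Control and comparison groups therefore carried the same allele, and the mice were males and females, matched for sex, aged 6 to 10 weeks. Cells that lacked lineage markers, among them CD3, CD90, CD64 and Ly6C, and carried CD11c and MHC class II were divided into cDC1s (XCR1+ CD11b-) and cDC2s (CD11b+ XCR1-), and cDC2s were split by the reporter into T-bet+ cDC2s and T-bet- cDC2s. RNA-seq covered both cDC2 subsets and cDC1s of the spleen (3 libraries each) and MLN T-bet+ cDC2s (2 libraries), T-bet- cDC2s (2 libraries) and cDC1s (3 libraries), with cells of 2 mice pooled for each library. ATAC-seq, which counts transposase insertions in open chromatin, covered the same 3 subsets of the spleen (2 libraries each). The reporter follows activity of the Tbx21 gene and not the protein itself, and the pools are mixtures of single cells.

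S1P is abundant in blood and lymph and scarce inside tissues, where a lyase destroys it, so cells read its gradient when they enter or leave lymphoid organs. S1pr1 signals through Gi proteins toward Rac and drives migration toward S1P and exit from lymphoid tissue, whereas S1pr2 restrains migration. Gpr183 binds dihydroxylated oxysterols, products of cholesterol made by Ch25h and Cyp7b1 and removed by Hsd3b7, and is known for placing B cells, T cells and CD4+ cDC2s at the outer edges of follicles and in the bridging channels of the spleen.

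Libraries held 20993220 to 29006549 RNA reads in genes and 7270164 to 10081555 ATAC reads in 150-base windows, and no pair of libraries was identical. Summed over 5 cDC1 markers, cDC1 libraries held 2849 to 5884 counts-per-million (CPM, with TMM-scaled library sizes) and cDC2 libraries at most 625. The 3 T-bet+ cDC2 markers separated the cDC2 subsets in spleen (449.6 to 504 CPM in T-bet+ and 51.7 to 58.7 in T-bet- cDC2s) and not in MLN (102 to 142 and 123 to 148 CPM), whereas the 4 T-bet- cDC2 markers separated them in both (10.3 to 19.7 against 470.1 to 590.2 CPM in spleen, 23.8 to 34.0 against 302 to 339 CPM in MLN). Tbx21 was at 17.2 to 24.9 CPM in spleen T-bet+ cDC2s against 0.289 to 2.38 in T-bet- cDC2s, and in MLN at 2.93 and 7.19 CPM against 0.538 and 0.918. The spleen RNA libraries fell into a pair of classes that crossed the sort. The GC content of a gene was taken as the highest share of G and C in any 100-base stretch of its longest transcript. In 6 of the spleen libraries (all T-bet+ cDC2 libraries, cDC1 libraries 1 and 2 and T-bet- cDC2 library 3) deviations from the gene means rose with this GC content (Spearman's rank correlation 0.202 to 0.34 across 7768 genes, which are not independent replicates). T-bet- cDC2 libraries 1 and 2 and cDC1 library 3 went the other way (-0.406 to -0.178), and the 7 MLN libraries ran from -0.317 to 0.045. The class was entered as a term in an alternative fit, and its values are given beside the receptors it touched.

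Gpr183 was the most abundant of the receptors in every group but MLN cDC1s, and the receptor lowest in level differed between groups. By mean CPM over all libraries Gpr183 stood at the 98.7th percentile of the 34047 genes, S1pr2 at the 80.3rd, S1pr1 at the 73.3rd, S1pr3 and S1pr5 at the 67.4th and S1pr4 at the 64.7th, where the S1pr5 mean leans on 1 library. Per length of exon, in RPKM (reads divided by exon length and library size), Gpr183 ranked first in 14 of 16 libraries, and S1pr1 ranked first in the other 2, both of them MLN cDC1 libraries. In spleen the Gpr183 level was 218 ± 44.5 RPKM (SD, n = 3) in T-bet+ cDC2s, 136 ± 18.2 RPKM (SD, n = 3) in T-bet- cDC2s and 27.9 ± 6.54 RPKM (SD, n = 3) in cDC1s. The other receptors were far lower, with group means of at most 0.762 RPKM in T-bet+ cDC2s, 3.42 RPKM in T-bet- cDC2s and 1.96 RPKM in cDC1s. In T-bet- cDC2s the next receptor was S1pr2 in libraries 1 and 2 (1.59 and 1.95 RPKM) and S1pr5 in library 3 (8.63 RPKM, against 0.732 and 0.905 in the others). The lowest mean was that of S1pr1 in both cDC2 subsets of the spleen and of S1pr5 in spleen cDC1s and all MLN groups. In MLN cDC1s the receptors lay closer together, with S1pr1 at 7.87 ± 3.56 RPKM (SD, n = 3), Gpr183 at 6.49 ± 2.43 RPKM (SD, n = 3) and S1pr2 at 3.82 ± 1.13 RPKM (SD, n = 3), and the first 2 of these did not differ beyond their spread.

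**Figure D1:**
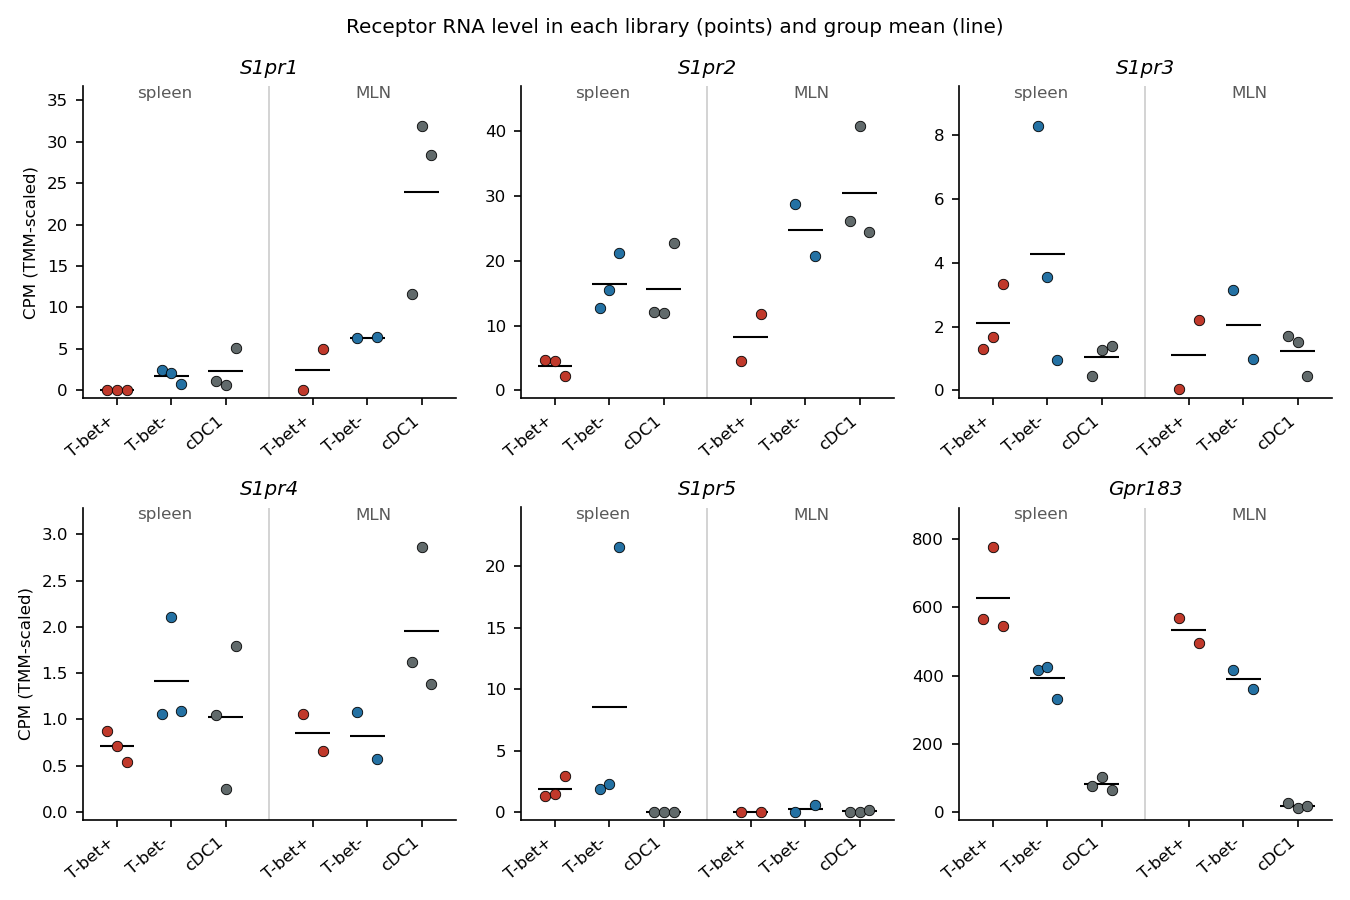
RNA level of each receptor in every library. The vertical axes give CPM, each point is 1 library, the short line is the group mean, and the horizontal axis lists T-bet+ and T-bet- cDC2s, then cDC1s, first of the spleen and then of the MLN. Gpr183 falls from cDC2s to cDC1s in both tissues, S1pr1 is near 0 in spleen T-bet+ cDC2s and peaks in MLN cDC1s, and S1pr5 is found almost wholly in spleen cDC2s, with 1 T-bet- cDC2 library at 21.6 CPM.

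Subsets were compared within each tissue, and each subset between tissues, with edgeR's quasi-likelihood test on the counts and Benjamini-Hochberg adjustment over all genes tested; a gene was called at an adjusted p under 0.05. Differences are log2 fold changes with their standard error (SE), the comparisons within a tissue share libraries, and replicates are separate pools of mice as far as the labels say. Between spleen T-bet+ and T-bet- cDC2s 2 of 6 receptors were called, S1pr1 and S1pr2, both lower in T-bet+ cDC2s, where 5.38% of all 14377 genes were called. Between spleen T-bet+ cDC2s and cDC1s 4 of 6 were called (S1pr5 and Gpr183 higher in the T-bet+ cDC2s, S1pr1 and S1pr2 lower), against 18.2% of all genes. Between spleen T-bet- cDC2s and cDC1s S1pr5 and Gpr183 were called, both higher in the cDC2s, against 15.9% of all genes.

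In MLN, Gpr183 alone was called, higher in T-bet+ cDC2s than in cDC1s (1 of 5 receptors tested; 6.22% of all 15298 genes) and higher in T-bet- cDC2s than in cDC1s (1 of 5; 5.79% of all genes). Between MLN T-bet+ and T-bet- cDC2s no receptor passed edgeR's test, and neither did any other gene (0% of 15298; 1444 genes had an unadjusted p under 0.05 and DESeq2 called 328). Between tissues, S1pr1 was called higher and Gpr183 lower in MLN cDC1s than in spleen cDC1s (2 of 6; 11.7% of 16795 genes), S1pr1 higher in MLN than in spleen T-bet+ cDC2s (1 of 6; 5.09%), and no receptor in T-bet- cDC2s (0 of 6; 5.95%). The difference of a subset contrast between tissues was called for no receptor, in a test that called 0.00595%, 0.0893% and 0.0357% of all genes for T-bet+ over T-bet- cDC2s, T-bet+ cDC2s over cDC1s and T-bet- cDC2s over cDC1s. Tissue and any difference in how the libraries of the tissues were made cannot be told apart.

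**Figure D2:**
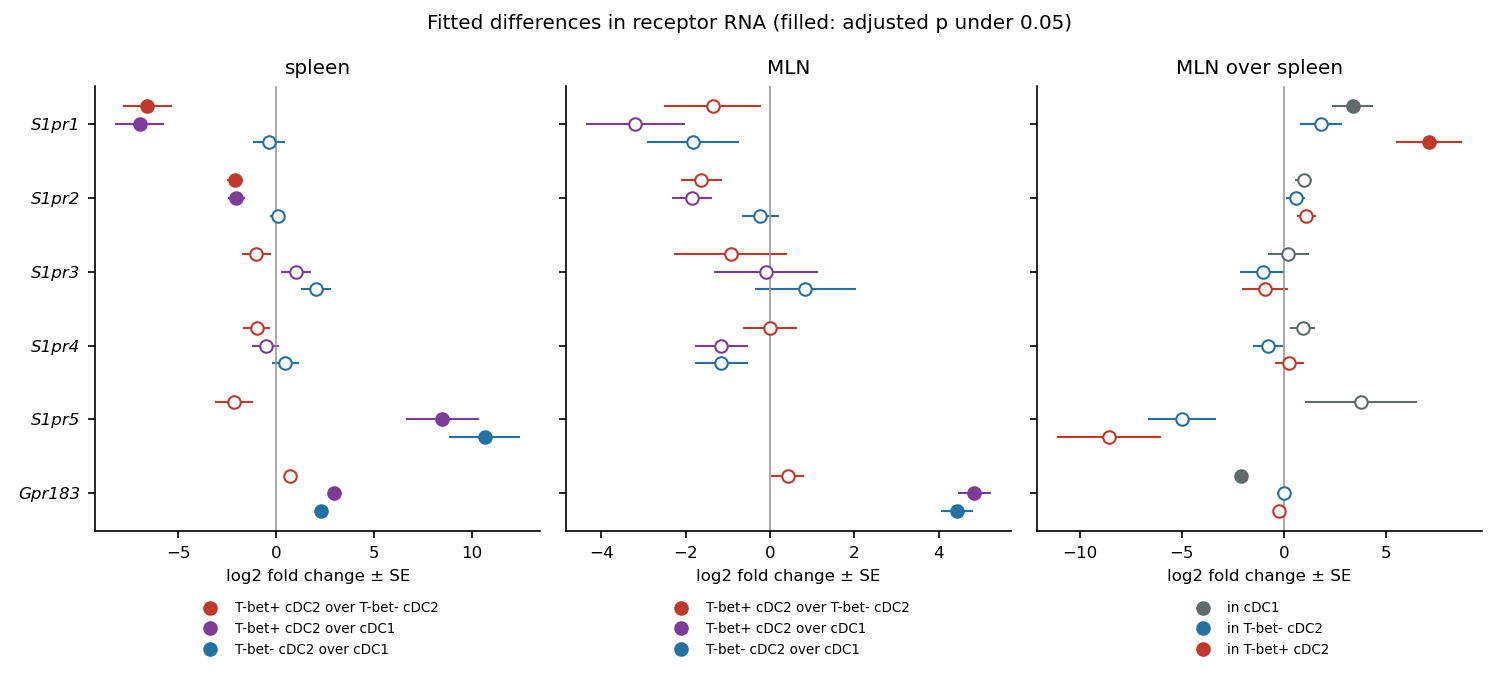
Log2 fold change of each receptor in 9 RNA comparisons, in panels for subsets of the spleen, subsets of the MLN and MLN over spleen. Points are fold changes, bars are ± 1 SE, and filled points have an adjusted p under 0.05. Gpr183 lies to the positive side in every comparison of cDC2s with cDC1s, and S1pr1 and S1pr2 lie below 0 in both spleen comparisons of T-bet+ cDC2s.

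S1pr1, the receptor for exit toward S1P, was close to absent from T-bet+ cDC2s of the spleen. The gene lies on chr3:115710433-115715072 (mm10, minus strand). The 3 spleen T-bet+ cDC2 libraries held 0.0396, 0 and 0 CPM, that is 1 read in all. The T-bet- cDC2 libraries held 2.46, 2.11 and 0.793 CPM, and the cDC1 libraries 1.13, 0.700 and 5.13 CPM. All 6 of these lay above every T-bet+ library, while the T-bet- cDC2 and cDC1 ranges overlapped. With the counts summed, the level in T-bet- cDC2s was 129 times that in T-bet+ cDC2s (95% exact counting interval 22.6 to 5130) and that in cDC1s 165 times (29.1 to 6548); these intervals cover counting error only. As fitted, T-bet+ cDC2s lay at -6.59 on the log2 scale relative to T-bet- cDC2s (SE 1.25, adjusted p = 0.0162) and at -6.97 relative to cDC1s (SE 1.25, adjusted p = 0.00402). In such pooled cells, fewer S1pr1-bearing cells and less S1pr1 RNA in each cell cannot be told apart.

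The S1pr1 difference between T-bet+ cDC2s and cDC1s passed under all 16 alternatives tried (adjusted p 2.18e-07 to 0.0224). That between T-bet+ and T-bet- cDC2s kept its direction in all 16 and passed in 11, with adjusted p from 3.03e-06 to 0.0800, and the alternatives that ended it included leaving out any of the 3 T-bet+ libraries. With the class term the value was -5.11 (adjusted p = 0.0134). Within the class of the T-bet+ libraries there was a single T-bet- cDC2 library, at 0.793 CPM, too few for a comparison. T-bet- cDC2s and cDC1s of the spleen were not separated (-0.38, SE 0.82, adjusted p = 0.806).

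In MLN the mean S1pr1 level was above that of the spleen in each subset, and it was uneven within T-bet+ cDC2s. The 3 MLN cDC1 libraries held 11.6, 31.9 and 28.4 CPM, the 2 T-bet- cDC2 libraries 6.32 and 6.43 CPM, and the 2 T-bet+ cDC2 libraries 0.0753 and 4.97 CPM. Each MLN cDC1 library lay above every MLN cDC2 library, and the highest spleen library, at 5.13 CPM, lay below all MLN libraries but those of T-bet+ cDC2s. In cDC1s the level was 10.4-fold higher in MLN than in spleen (3.38 in log2, SE 1.00, adjusted p = 0.0430). This call passed in 10 of 21 alternatives and ended with the class term (2.49 in log2, adjusted p = 0.153). It also ended when 1 of 10 libraries was left out, among them MLN cDC1 libraries 2 and 3 and spleen cDC1 libraries 1 and 2. The log2 fold change ran from 2.49 to 4.70 over all alternatives. MLN cDC1 libraries 2 and 3 also held more of 6 migratory mature DC markers (14291 and 15910 CPM summed) than library 1 (6444 CPM). The same sum was 12733.5 and 15851 CPM in MLN T-bet- cDC2s. Spleen T-bet+ cDC2s, with 1 S1pr1 read in all, held 13004.5 to 14178 CPM. Other spleen groups held 9700 to 10359.5 CPM (T-bet- cDC2s) and 7426 to 8489 CPM (cDC1s). The part of these markers in the S1pr1 level was not tested. Endothelial cells are also rich in S1pr1, and 6 of their markers summed to 14.3 to 21.3 CPM in MLN cDC1s and to 45.0 to 138 CPM in all other libraries. Tie1 alone of these was at 0 in all 3 MLN cDC1 libraries, and Tek was at 0 in both spleen cDC2 subsets. The part of endothelial cells in the S1pr1 level was not tested.

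In T-bet+ cDC2s S1pr1 was called higher in MLN than in spleen (7.12, SE 1.61, adjusted p = 0.0250; counts summed, 190 times, 95% exact interval 33.4 to 7545), and this rested on MLN library 2. Without it the difference was 2.13 (adjusted p = 0.663), and without any single spleen T-bet+ library the call was also lost. MLN T-bet+ cDC2 library 2 held 69.4 CPM summed over 6 stromal markers, against 0.753 CPM in library 1, and 13638 against 6526 CPM over the migratory mature DC markers; their part in its S1pr1 level was not tested. Within MLN neither T-bet+ over T-bet- cDC2s (-1.36, SE 1.15, adjusted p = 0.792) nor T-bet+ cDC2s over cDC1s (-3.19, SE 1.17, adjusted p = 0.160) passed, and without that library these were -6.33 (adjusted p = 0.1004) and -8.18 (adjusted p = 0.00499). Each value without it rests on 1 MLN T-bet+ library with 2 S1pr1 reads, whose spread is assumed to be that of the other groups.

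S1pr2, the receptor that restrains migration, was also lowest in T-bet+ cDC2s of both tissues, at a higher level. The gene spans chr9:20962361-20976781 (mm10, minus strand). Spleen T-bet+ cDC2s held 4.75, 4.50 and 2.16 CPM, T-bet- cDC2s 12.7, 15.6 and 21.2 CPM, and cDC1s 12.1, 11.9 and 22.8 CPM. The T-bet+ libraries lay below all 6 others, which overlapped each other. T-bet+ cDC2s differed from T-bet- cDC2s by -2.11 in log2 (SE 0.41, adjusted p = 0.0184), a 4.32-fold lower level, and from cDC1s by -2.03 (SE 0.41, adjusted p = 0.00756), 4.09-fold lower. The first passed in 12 of 17 alternatives (adjusted p 5.34e-05 to 0.0754), and those that ended it included leaving out any single T-bet+ library or T-bet- cDC2 library 2, and the second passed in all 17 (adjusted p 3.97e-05 to 0.0342). With the class term they were -2.01 (adjusted p = 0.0267) and -1.95 (adjusted p = 0.00734).

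MLN T-bet+ cDC2s held 4.59 and 11.8 CPM of S1pr2, T-bet- cDC2s 28.7 and 20.7 CPM, and cDC1s 26.2, 40.8 and 24.4 CPM. Both T-bet+ libraries lay below the other 5. The differences were -1.63 (SE 0.49, adjusted p = 0.368) from T-bet- cDC2s and -1.86 (SE 0.47, adjusted p = 0.0598) from cDC1s, so neither passed. Without T-bet+ library 2 the second was -2.69 (adjusted p = 0.0253), a value from 1 library whose spread is taken from the other groups. Between tissues S1pr2 was 0.97 higher in MLN cDC1s (SE 0.41, adjusted p = 0.132), 0.58 in T-bet- cDC2s (SE 0.45, adjusted p = 0.441) and 1.10 in T-bet+ cDC2s (SE 0.46, adjusted p = 0.145), and none of these passed. In order of group means, MLN cDC1s (30.5 ± 9.02 CPM, SD, n = 3) and MLN T-bet- cDC2s (24.7 ± 5.65, SD, n = 2) overlapped, as did spleen T-bet- cDC2s (16.5 ± 4.35, SD, n = 3) and spleen cDC1s (15.6 ± 6.22, SD, n = 3), followed by T-bet+ cDC2s of MLN (8.20 ± 5.10, SD, n = 2) and spleen (3.80 ± 1.43, SD, n = 3).

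S1pr3, a receptor that couples to several classes of G protein, was low throughout, and its subsets overlapped. It spans chr13:51408639-51422797 (mm10, plus strand). Spleen T-bet+ cDC2s held 1.31, 1.69 and 3.32 CPM, T-bet- cDC2s 8.29, 3.55 and 0.944 CPM, and cDC1s 0.446, 1.28 and 1.40 CPM. The highest and the lowest cDC2 library of the spleen were both T-bet-, and the groups overlapped. T-bet+ and T-bet- cDC2s differed by -1.01 in log2 (SE 0.75, adjusted p = 0.531), and it turned to 0.45 (adjusted p = 0.896) with the class term; T-bet- libraries 1 and 2, the higher ones, are of the other class. In MLN the level ran from 0.0376 to 2.20 CPM in T-bet+ cDC2s, from 0.995 to 3.13 CPM in T-bet- cDC2s and from 0.437 to 1.70 CPM in cDC1s, and no comparison passed.

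S1pr4, a receptor found mostly in blood cells, was detected in every library at 0.247 to 2.86 CPM, from 6 to 66 reads. It lies on chr10:81497747-81500132 (mm10, minus strand). Spleen T-bet+ cDC2s held 0.872, 0.713 and 0.540 CPM, T-bet- cDC2s 1.06, 2.11 and 1.10 CPM, and cDC1s 1.05, 0.247 and 1.79 CPM. The T-bet+ libraries lay below the T-bet- ones without overlap, but the difference did not pass (-0.99, SE 0.69, adjusted p = 0.497). MLN cDC1s held 1.62, 2.86 and 1.38 CPM, above both cDC2 groups (0.574 to 1.08 CPM), and here too the differences did not pass (-1.16, SE 0.62, adjusted p = 0.326 for T-bet+ cDC2s over cDC1s, and -1.16, SE 0.62, adjusted p = 0.368 for T-bet- cDC2s over cDC1s).

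S1pr5, which drives exit of natural killer (NK) cells and patrolling monocytes and is a known target of T-bet in NK cells, was a receptor of spleen cDC2s in these data. It lies on chr9:21242912-21248443 (mm10, minus strand). Spleen T-bet+ cDC2s held 1.31, 1.46 and 2.95 CPM and T-bet- cDC2s 1.83, 2.26 and 21.6 CPM, while all 3 cDC1 libraries held 0 reads. The cDC2 libraries overlapped each other and lay apart from cDC1s. Taken against a floor of 3 reads in each cDC1 library, the level was at least 14.7-fold higher in T-bet+ cDC2s and at least 65.8-fold higher in T-bet- cDC2s on average, and at least 9.01-fold and 12.6-fold higher in the lowest library of each. Both differences were called (adjusted p = 0.0170 and 0.00657). The first passed in 13 of 15 alternatives (adjusted p 1.04e-09 to 0.0922) and was lost without cDC1 library 2, and the second passed in all 15 (adjusted p 2.36e-14 to 0.0314).

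Between T-bet+ and T-bet- cDC2s of the spleen S1pr5 did not pass (-2.16, SE 0.99, adjusted p = 0.299), and its value turned on T-bet- library 3, the library at 21.6 CPM. Without it the log2 fold change was -0.19 (adjusted p = 0.863), and with the class term, which sets that library beside the T-bet+ ones, it was -3.47 (adjusted p = 0.0105). The 7 NK cell markers in the count table summed to 0.608 to 3.18 CPM in all libraries. Eomes and Gzma were at 0 in spleen T-bet- cDC2s and Gzmb in spleen T-bet+ cDC2s, and the rest were detected in those groups. The sum of 5 patrolling monocyte markers was lowest among spleen cDC2 libraries in T-bet- library 3, at 3025 CPM against up to 5180 CPM. Spleen cDC1s, with 0 reads of S1pr5, held 2232 to 3060 CPM of the same markers. The markers were Nr4a1, Ace, Spn, Treml4 and Cd300e. Their sum was high in every sorted group of the spleen and does not show each marker, so it is no measure of monocyte content. The part of NK cells or patrolling monocytes in the S1pr5 level was not tested. In MLN S1pr5 was at 0 in both T-bet+ cDC2 libraries, at 0 and 0.536 CPM in T-bet- cDC2s and at 0, 0 and 0.182 CPM in cDC1s, and was too low to be tested between subsets there. The level in spleen T-bet+ cDC2s was at least 16.7-fold above that in MLN T-bet+ cDC2s, a difference that did not pass (adjusted p = 0.0755), and spleen T-bet- cDC2s lay above MLN T-bet- cDC2s without overlap (-5.00, SE 1.67, adjusted p = 0.101).

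Gpr183, the oxysterol receptor, was the receptor that set cDC2s apart from cDC1s in both tissues. It lies on chr14:121952551-121965195 (mm10, minus strand), within the gene Ubac2 on the opposite strand, with which it shares no exon bases. Spleen T-bet+ cDC2s held 565, 776 and 545 CPM, T-bet- cDC2s 418, 426 and 331 CPM, and cDC1s 75.2, 102 and 64.9 CPM. The 3 subsets did not overlap. Gpr183 was 7.82-fold higher in T-bet+ cDC2s than in cDC1s (2.97 in log2, SE 0.25, adjusted p = 4.15e-05) and 4.87-fold higher in T-bet- cDC2s than in cDC1s (2.28, SE 0.24, adjusted p = 0.000182). Between T-bet+ and T-bet- cDC2s it did not pass, at 0.69 on the log2 scale (SE 0.23, adjusted p = 0.134) ranging from 0.49 to 0.78 over 17 alternatives with adjusted p from 0.112 to 0.397.

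MLN T-bet+ cDC2s held 569 and 495 CPM of Gpr183, T-bet- cDC2s 418 and 359 CPM, and cDC1s 25.8, 11.8 and 18.5 CPM, again without overlap. Gpr183 was 28.7-fold higher in T-bet+ cDC2s than in cDC1s (4.84, SE 0.39, adjusted p = 0.000908) and 21.5-fold higher in T-bet- cDC2s than in cDC1s (4.43, SE 0.39, adjusted p = 0.00111), while the step from T-bet- to T-bet+ cDC2s measured 0.42 (SE 0.40, adjusted p = 0.823). cDC1s of MLN held 4.30-fold less than those of spleen (-2.10, SE 0.28, adjusted p = 0.00108), whereas the values for MLN over spleen were -0.24 (SE 0.30, adjusted p = 0.637) in T-bet+ cDC2s and -0.01 (SE 0.30, adjusted p = 0.990) in T-bet- cDC2s. The gap between cDC2s and cDC1s was wider in MLN by 1.86 (SE 0.40, adjusted p = 0.108) for T-bet+ and by 2.09 (SE 0.40, adjusted p = 0.103) for T-bet- cDC2s, and these differences did not pass; without MLN cDC1 library 1 they were 2.20 (adjusted p = 0.0213) and 2.48 (adjusted p = 0.0198). All 5 called differences of Gpr183 passed under every alternative run, which numbered 17 in each spleen comparison, 15 in each MLN comparison and 22 between tissues.

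Other values moved with Gpr183 and their part in its level was not tested. Summed over 7 monocyte and macrophage markers, all detected, spleen T-bet+ cDC2s held 869 to 987 CPM, T-bet- cDC2s 1287 to 1703 CPM and cDC1s 291 to 446 CPM, an order that differs from that of Gpr183 between the cDC2 subsets. The MLN sums were 456 to 722, 705 to 881 and 267 to 307 CPM. Ubac2 itself was also higher in spleen cDC2s than in cDC1s, by 1.24 for T-bet+ (adjusted p = 0.00160) and 1.01 for T-bet- cDC2s (adjusted p = 0.00564), which is less than Gpr183, and did not pass in MLN (0.82, adjusted p = 0.126, and 0.61, adjusted p = 0.275).

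Chromatin was read from spleen only. Each peak summit gave a window of 150 bases, and a window was counted for a receptor when that was the closest annotated gene within 50000 bases; this held for 58 of 177956 windows, of which 24 were at S1pr1, 13 at S1pr2, 16 at S1pr3, 3 at S1pr5 and 2 at Gpr183, and none at S1pr4. Windows at S1pr3, S1pr5 and Gpr183 may lie as close to another gene, since S1pr3 overlaps the noncoding gene Gm32834, S1pr5 overlaps Gm48303 and Gpr183 lies in Ubac2. A window was called at an adjusted p under 0.01 and a log2 fold change over 0.5 in size, again by edgeR. Of 57 receptor windows tested, 8 were called less open in T-bet+ cDC2s than in their T-bet- counterparts and 0 more open, where 6.28% of all 166547 windows were called in either direction. Of the 57, 50 had a log2 fold change below 0, with a median of -0.60 against -0.01 over all windows. These 8 were 5 windows at S1pr1, 2 at S1pr3 and 1 at S1pr5.

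T-bet+ cDC2s over cDC1s gave 2 windows more open and 6 less open, against 23% of all windows called, with a median of -0.42. The more open ones were 1 at S1pr1 and 1 at Gpr183, and the less open ones 3 at S1pr1 and 3 at S1pr2. T-bet- cDC2s over cDC1s gave 8 windows more open (5 at S1pr1, 2 at S1pr3, 1 at Gpr183) and 0 less open, against 17.9% of all windows, with a median of 0.32. These comparisons share libraries, and neighbouring windows of a locus are not independent.

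**Figure D3:**
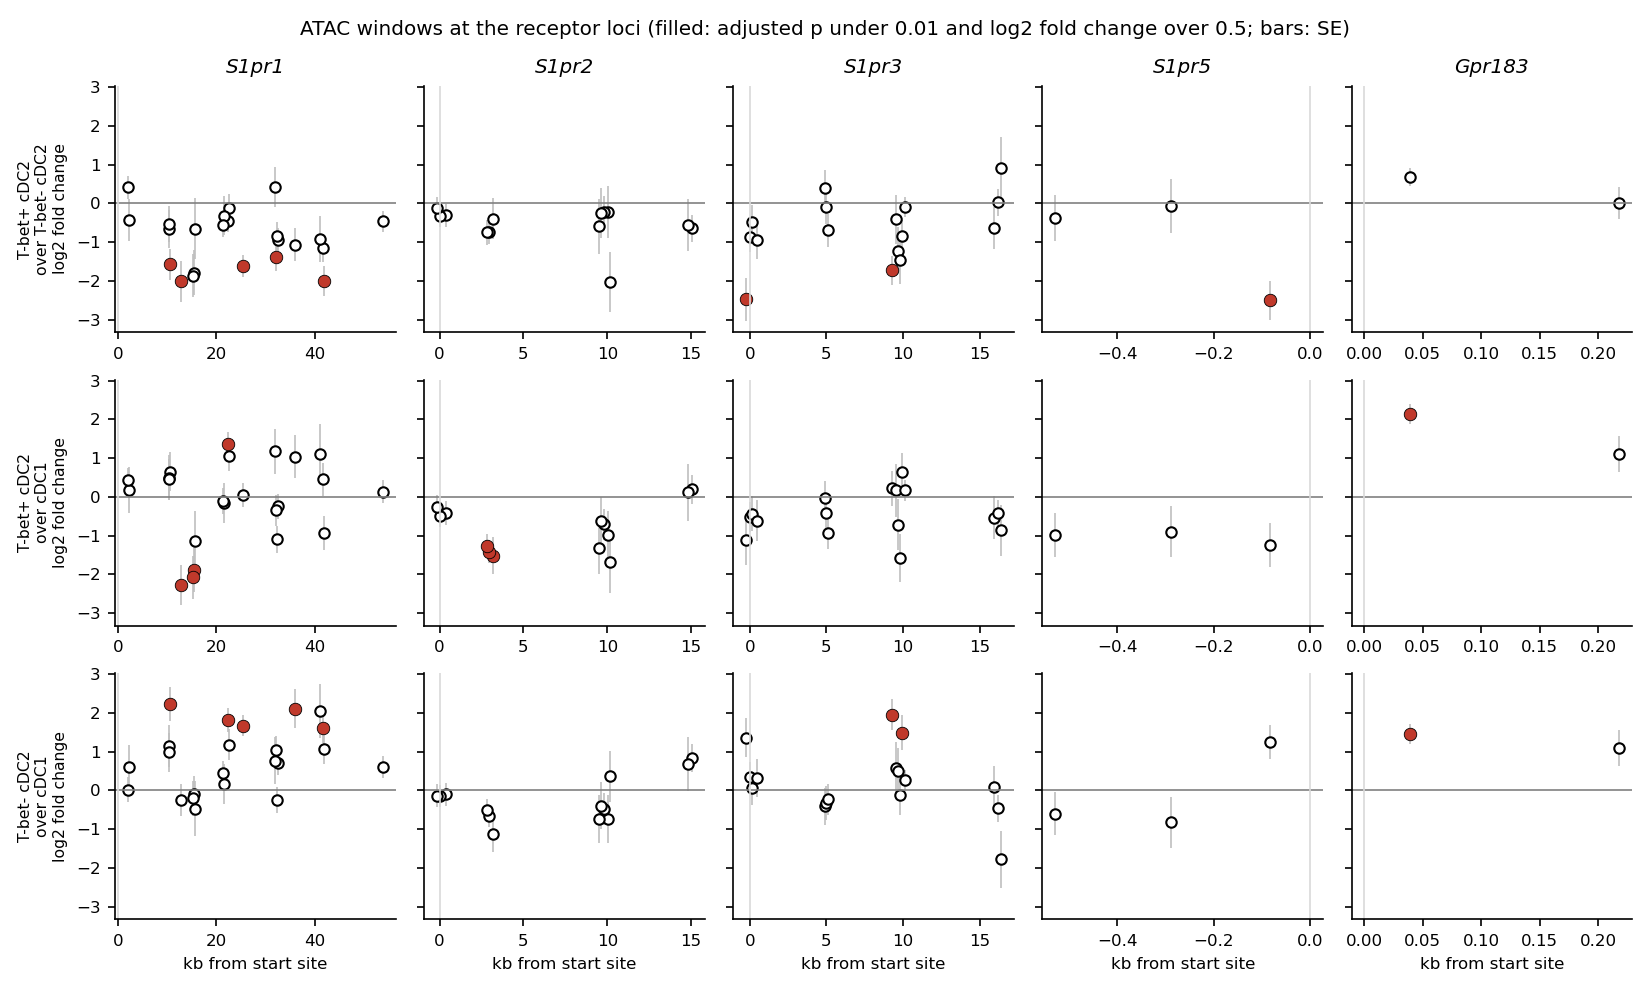
Accessibility of windows near 5 receptors in 3 spleen comparisons (rows). The horizontal axis is distance from the gene's start site in kilobases, positive in the direction of transcription, the vertical axis is the log2 fold change ± 1 SE, and filled points were called. In the row of T-bet+ over T-bet- cDC2s most S1pr1 and S1pr2 windows lie below 0, and the lowest called points are the windows just before the start sites of S1pr3 (-2.48) and S1pr5 (-2.51).

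**Figure D4:**
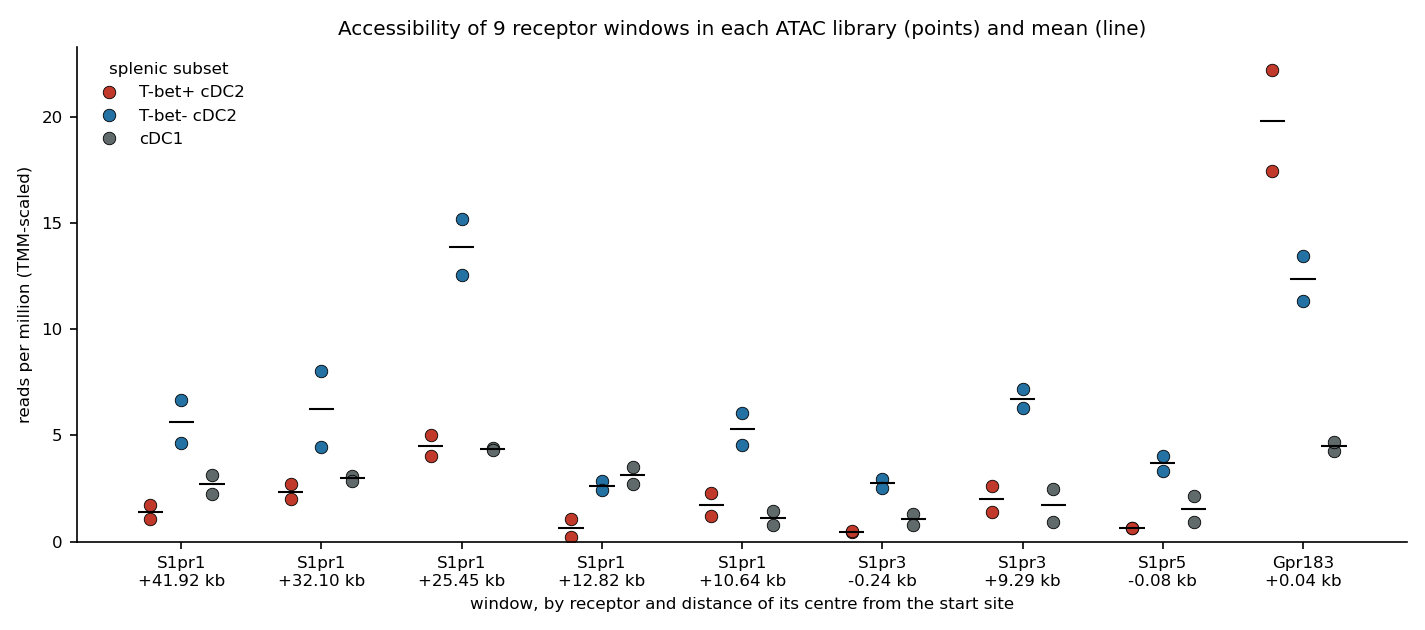
CPM in each ATAC library for the 8 windows called between T-bet+ and T-bet- cDC2s and for the Gpr183 window at its start site. Each point is 1 library, the line is the mean of 2 libraries, and the vertical axis, shared by all windows, starts at 0. In all 8 called windows both T-bet+ libraries lie below both T-bet- libraries, and at Gpr183 both cDC2 subsets lie above cDC1s.

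The called S1pr1 windows all lay beyond the 3′ end of the gene, between 10638 and 41919 bases downstream of its start site. The sequences of the 5 that were called between the cDC2 subsets are shown in mm10, 5′ to 3′ on the gene's strand, since they carry the S1pr1 difference in chromatin; capitals mark matches to the motifs described further on.
S1pr1 window at 10638 bases, chr3:115704360-115704509, minus strand, capitals a PU.1 motif: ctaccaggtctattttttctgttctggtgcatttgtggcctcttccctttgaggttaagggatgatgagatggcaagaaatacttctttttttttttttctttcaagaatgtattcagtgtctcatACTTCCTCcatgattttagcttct
S1pr1 window at 12821 bases, chr3:115702177-115702326, minus strand, no match: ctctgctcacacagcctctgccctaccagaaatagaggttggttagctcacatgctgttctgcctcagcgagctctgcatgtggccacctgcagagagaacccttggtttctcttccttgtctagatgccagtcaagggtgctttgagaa
S1pr1 window at 25454 bases, chr3:115689544-115689693, minus strand, capitals an AP-1 motif: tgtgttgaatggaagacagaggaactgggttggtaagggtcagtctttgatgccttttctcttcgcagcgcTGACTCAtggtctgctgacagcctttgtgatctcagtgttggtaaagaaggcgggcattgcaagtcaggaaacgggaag
S1pr1 window at 32102 bases, chr3:115682896-115683045, minus strand, capitals an Nr4a motif: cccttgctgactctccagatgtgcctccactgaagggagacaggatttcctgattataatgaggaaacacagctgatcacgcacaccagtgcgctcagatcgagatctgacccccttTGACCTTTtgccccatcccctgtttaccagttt
S1pr1 window at 41919 bases, chr3:115673079-115673228, minus strand, no match: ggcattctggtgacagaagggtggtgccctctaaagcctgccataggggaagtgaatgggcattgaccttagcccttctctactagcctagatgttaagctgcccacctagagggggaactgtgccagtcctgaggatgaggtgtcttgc

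The window at 25454 bases was the most accessible of these, with 4.02 and 5.02 CPM in T-bet+ cDC2 libraries, 12.6 and 15.2 in T-bet- cDC2s and 4.40 and 4.31 in cDC1s. It was open in T-bet- cDC2s above both other subsets, which overlapped: the log2 fold change was -1.62 for T-bet+ over T-bet- cDC2s (SE 0.27, adjusted p = 9.81e-06), 1.67 for T-bet- cDC2s over cDC1s (SE 0.28, adjusted p = 2.04e-06) and 0.06 for T-bet+ cDC2s over cDC1s. The window at 10638 bases, the closest to the gene, followed the same order with 1.20 and 2.30, 6.04 and 4.56, and 1.43 and 0.784 CPM (T-bet+ over T-bet- cDC2s -1.58, SE 0.40, adjusted p = 0.00334; T-bet- cDC2s over cDC1s 2.23, SE 0.44, adjusted p = 4.07e-05). At 41919 bases the values were 1.74 and 1.05 in T-bet+ cDC2 libraries, 6.66 and 4.66 in T-bet- cDC2s and 2.26 and 3.13 in cDC1s (T-bet+ over T-bet- cDC2s -2.01, SE 0.40, adjusted p = 0.000164). The window at 32102 bases gave -1.39 (SE 0.36, adjusted p = 0.00497) in that comparison.

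The window at 12821 bases had a different order, in which T-bet+ cDC2s stood below both other subsets, as they did for S1pr1 RNA. It held 0.218 and 1.05 CPM in T-bet+ cDC2 libraries, 2.84 and 2.43 in T-bet- cDC2s and 2.73 and 3.53 in cDC1s. T-bet- cDC2s and cDC1s overlapped, and both T-bet+ libraries lay below them (-2.01, SE 0.52, adjusted p = 0.00472 from T-bet- cDC2s; -2.26, SE 0.52, adjusted p = 0.000281 from cDC1s). The first of these calls passed in 6 of 10 alternatives, with values from -3.50 to -1.31, and was lost under DESeq2. The second passed in 9 of 10. A pair of overlapping windows at 15364 and 15457 bases was also less open in T-bet+ cDC2s than in cDC1s (-2.08, SE 0.55, adjusted p = 0.00199, and -1.88, SE 0.58, adjusted p = 0.00771). At 22440 bases the order was that of cDC2s against cDC1s, with 8.05 and 6.27, 10.5 and 9.31, and 3.33 and 2.22 CPM, and both cDC2 subsets were called above cDC1s (1.35, SE 0.32, adjusted p = 0.000551, and 1.82, SE 0.32, adjusted p = 4.16e-06). S1pr1 RNA, in contrast, was lower in T-bet+ cDC2s than in cDC1s and not separated between T-bet- cDC2s and cDC1s. The window nearest the start site, at -1339 bases and closer to the gene Gm9889, was not called between T-bet+ and T-bet- cDC2s (-0.72, adjusted p = 0.187).

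S1pr2 windows were called only between T-bet+ cDC2s and cDC1s, all less open in T-bet+ cDC2s, although all 13 had a log2 fold change below 0 between T-bet+ and T-bet- cDC2s (median -0.40). The most accessible called window lies in an intron and overlaps its neighbour at 2855 bases, which reaches into an exon; it is shown because its order of subsets was graded.
S1pr2 window at 2948 bases, chr9:20973759-20973908, minus strand, no match: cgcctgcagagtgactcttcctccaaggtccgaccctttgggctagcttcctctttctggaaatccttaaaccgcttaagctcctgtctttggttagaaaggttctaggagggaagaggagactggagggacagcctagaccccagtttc

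It held 3.48 and 3.87 CPM in T-bet+ cDC2 libraries, 6.16 and 6.18 in T-bet- cDC2s and 10.2 and 9.40 in cDC1s, with no overlap between subsets. T-bet+ cDC2s lay 1.41 below cDC1s on the log2 scale (SE 0.30, adjusted p = 8.26e-05), and the step between T-bet+ and T-bet- cDC2s did not pass (-0.74, adjusted p = 0.108). The window at the S1pr2 start site, 46 bases into the gene, was not called in any comparison (-0.33, -0.49 and -0.15).

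S1pr3 and S1pr5 were the receptors with a called window just before the start site, and both held few reads in T-bet+ cDC2s. These and the intronic S1pr3 window are shown because the chromatin differed between cDC2 subsets where the RNA did not pass.
S1pr3 window at -237 bases, chr13:51408328-51408477, plus strand, no match: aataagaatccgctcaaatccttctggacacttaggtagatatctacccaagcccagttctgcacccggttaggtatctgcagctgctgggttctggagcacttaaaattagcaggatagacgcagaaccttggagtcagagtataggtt
S1pr3 window at 9286 bases, chr13:51417851-51418000, plus strand, capitals an IRF motif: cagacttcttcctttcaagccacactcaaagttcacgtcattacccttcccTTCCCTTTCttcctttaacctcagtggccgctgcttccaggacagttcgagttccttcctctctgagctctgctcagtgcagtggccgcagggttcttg
S1pr5 window at -84 bases, chr9:21248453-21248602, minus strand, no match: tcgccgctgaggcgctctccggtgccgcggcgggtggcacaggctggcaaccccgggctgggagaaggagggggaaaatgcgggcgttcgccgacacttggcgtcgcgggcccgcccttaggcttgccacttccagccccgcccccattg

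The S1pr3 window at -237 bases held 0.435 and 0.523 CPM in T-bet+ cDC2 libraries, 2.96 and 2.53 in T-bet- cDC2s and 1.31 and 0.784 in cDC1s (T-bet+ over T-bet- cDC2s -2.48, SE 0.56, adjusted p = 0.000912). The intronic window at 9286 bases held 1.41 and 2.61, 6.29 and 7.19, and 2.49 and 0.914 (-1.73, SE 0.37, adjusted p = 0.000570; T-bet- cDC2s over cDC1s 1.96, SE 0.39, adjusted p = 6.19e-05). In both windows the T-bet- libraries stood above all others. The S1pr5 window held 0.653 and 0.627 CPM in T-bet+ cDC2 libraries, 3.33 and 4.05 in T-bet- cDC2s and 2.14 and 0.914 in cDC1s. It was less open in the T-bet+ than the T-bet- subset (-2.51, SE 0.49, adjusted p = 0.000148), and the steps from T-bet+ cDC2s to cDC1s (-1.25, adjusted p = 0.0832) and from T-bet- cDC2s to cDC1s (1.25, adjusted p = 0.0248) were not called. Both cDC1 libraries, from cells in which S1pr5 RNA was at 0, held more reads in this window than either T-bet+ library.

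At Gpr183 the window 39 bases into the gene was the most open receptor window of those described here and followed the order of the RNA. It held 22.2 and 17.5 CPM in T-bet+ cDC2 libraries, 13.4 and 11.3 in T-bet- cDC2s and 4.28 and 4.70 in cDC1s, with no overlap. Both cDC2 subsets were called above cDC1s (2.14, SE 0.25, adjusted p = 1.37e-10, and 1.46, SE 0.26, adjusted p = 8.91e-06). Between the cDC2 subsets it measured 0.68 (SE 0.22, adjusted p = 0.0329), short of the threshold. The promoter sequence given by RefSeq (GRCm38.p6, the assembly of mm10) is shown with its motif in capitals. Only its 3′ end overlaps that window, and the motif lies upstream of the window and of its peak.
Gpr183 promoter, chr14:121965194-121965443, minus strand, capitals a C/EBP motif: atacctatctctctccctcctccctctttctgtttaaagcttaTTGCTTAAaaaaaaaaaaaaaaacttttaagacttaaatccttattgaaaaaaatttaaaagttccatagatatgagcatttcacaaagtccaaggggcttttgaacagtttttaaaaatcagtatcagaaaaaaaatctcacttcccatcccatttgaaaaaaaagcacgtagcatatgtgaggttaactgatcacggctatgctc

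At S1pr4 the nearest window, at -2698 bases from the start site and closer to Gna15, held 8.59 and 7.84, 6.53 and 4.25, and 9.03 and 6.14 CPM in the 3 subsets and was not called. Under 10 alternatives each, the calls at S1pr1 25454 and 41919 bases, S1pr2 2948 bases, S1pr5 and Gpr183 passed in all, as did those of T-bet- cDC2s over cDC1s at S1pr1 10638 and 22440 bases, and the other calls passed in 3 to 9 of those run.

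The windows and promoters were searched for 8 motifs on both strands. The T-box motif AGGTGTNA was in 0 of the 18 receptor windows called in any comparison and in 0 of the 42 others examined, and it occurs in 1.92% of all windows of this length. Within the 18 called windows AP-1 (TGANTCA, in 7.9% of all windows) matched at S1pr1 25454 and 15364 bases, Runx (TGTGGTT, 5.23%) at S1pr1 22440 and S1pr2 3195 bases, and C/EBP (TTGCNNAA, 5.89%) at S1pr1 35902 and S1pr3 9945 bases. Nr4a (AAAGGTCA, 1.01%), PU.1 (GAGGAAGT, 5.5%) and IRF (GAAANNGAA, 5.61%) each matched in 1 window, as shown above. The Klf motif CCACACCC (1.85%) was in none of these 18 windows and was found in the S1pr2 promoter, where 3.57% of 27025 promoters hold it, and the C/EBP motif of the Gpr183 promoter occurs in 10.8% of promoters. A match is only an occurrence of the letters, and the shown matches do not overlap one another.

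Genes that make, move or break down the ligands and genes that signal below the receptors were taken as a list of 58, of which 56 were in the count table. Between spleen T-bet+ and T-bet- cDC2s 2 rose and 5 fell of 49 tested (14.3%, against 5.38% of all genes; median log2 fold change 0.17). Among S1P breakdown genes, 2 lipid phosphatases that act on extracellular lysophospholipids fell: Plpp1 (-2.28, SE 0.37, adjusted p = 0.00767) and Plpp2 (-2.23, SE 0.24, adjusted p = 0.000955). Arrb1, an arrestin that shuts off receptors (-2.01, SE 0.39, adjusted p = 0.0185), Rgs10, which speeds GTP hydrolysis by G proteins (-1.04, adjusted p = 0.0451), and Lpar6, a lysophosphatidic acid receptor (-1.31, adjusted p = 0.0351), also fell. Gpr55, a lysophosphatidylinositol receptor (1.93, SE 0.32, adjusted p = 0.00870), and Rac2, a GTPase of the cytoskeleton (0.87, SE 0.21, adjusted p = 0.0413), rose. The calls of Plpp2 and Gpr55 passed in all 17 alternatives and that of Plpp1 in 15 of 16. Those of Arrb1, Rgs10, Lpar6 and Rac2 were less firm, passing in 10, 9, 7 and 7 of 17.

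Against cDC1s, 8 genes of the list were called higher and 6 lower in spleen T-bet+ cDC2s (28.6% of 49, against 18.2% of all genes). In T-bet- cDC2s 4 were higher and 3 lower (14.3%, against 15.9% of all genes). Plpp1 set cDC1s apart most, at 181 ± 39.2 CPM (SD, n = 3) in spleen cDC1s against 0.345 ± 0.105 CPM (SD, n = 3) in T-bet+ and 1.69 ± 0.599 CPM (SD, n = 3) in T-bet- cDC2s. Cd69, whose product binds S1pr1 and takes it off the cell surface, was called higher in both, with 93.6, 85.2 and 10.9 CPM on average in spleen T-bet+ and T-bet- cDC2s and in cDC1s (3.11 and 2.97 over cDC1s). S1pr1 RNA fell in the first of these comparisons and did not pass in the second. Sphk1, an S1P-making kinase, and Sgpl1, the S1P lyase, passed in no comparison; Sgpl1 was at 319, 554 and 444 CPM in the 3 spleen subsets.

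In MLN no gene of the list passed between the cDC2 subsets (0 of 50 tested, against 0% of all genes). Against cDC1s, 3 were higher and 3 lower in T-bet+ cDC2s (12%, against 6.22% of all genes). In T-bet- cDC2s 2 were higher and 1 lower (6%, against 5.79% of all genes). Cyp7b1, which makes the Gpr183 ligand, was higher in both cDC2 subsets of MLN than in cDC1s (4.23, SE 0.86, adjusted p = 0.0286, and 3.90, SE 0.86, adjusted p = 0.0387), at mean levels of 8.27, 6.40 and 0.451 CPM. The T-bet+ libraries were far apart, at 1.73 CPM in library 1 and 14.8 CPM in library 2, the one with 69.4 CPM of stromal markers, whose part in the Cyp7b1 level was not tested. Without library 2 the first difference was 1.98 (adjusted p = 0.120), and the calls passed in 6 and 8 of 14 alternatives. Ch25h, the other enzyme of that path, stayed at or below 1.87 CPM on average in every subset and passed in no comparison. Cd69 was again higher in both cDC2 subsets and Plpp1 lower.

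Between tissues, the list gave 3 higher and 6 lower in MLN cDC1s (17.3% of 52, against 11.7% of all genes). It gave 1 higher in T-bet- cDC2s (1.92%, against 5.95%) and 4 higher and 1 lower in T-bet+ cDC2s (9.62%, against 5.09%). Gpr55 was called higher in MLN in all 3 subsets (4.42 for cDC1s, 4.02 for T-bet- and 2.19 for T-bet+ cDC2s). The oxysterol genes Cyp7b1 (4.56, adjusted p = 0.0398) and Hsd3b7 were also called higher in MLN T-bet+ cDC2s; Hsd3b7 had 0 reads in all 3 spleen libraries and 5 and 24 reads in MLN. Both calls ended without MLN T-bet+ library 2, the one with the higher stromal marker sum, which left 1 library in that group (2.30 for Cyp7b1 and 5.24 for Hsd3b7). They also ended without any single spleen T-bet+ library (adjusted p 0.0570 to 0.107). The Cyp7b1 call was lost as well without either MLN T-bet- cDC2 library or MLN cDC1 library 3. The 2 calls passed in 13 and 16 of 21 alternatives. Klf2, the transcription factor that drives S1pr1 in lymphocytes, was called lower in MLN than in spleen in cDC1s (-2.53, adjusted p = 0.0368) and T-bet+ cDC2s (-3.67, adjusted p = 0.0330), the subsets in which S1pr1 was called higher in MLN. With the class term the Klf2 difference was -0.41 in cDC1s (adjusted p = 0.728) and -1.27 in T-bet+ cDC2s (adjusted p = 0.449), and each call passed in 16 of 22 alternatives. The call in T-bet+ cDC2s also ended without any single T-bet+ library of either tissue (adjusted p up to 0.373), and that in cDC1s without any single cDC1 library but spleen library 3 (adjusted p up to 0.149). Within spleen the Klf2 level was lowest in libraries of the lower class, at 13.3 CPM in cDC1 library 3.

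**Figure D5:**
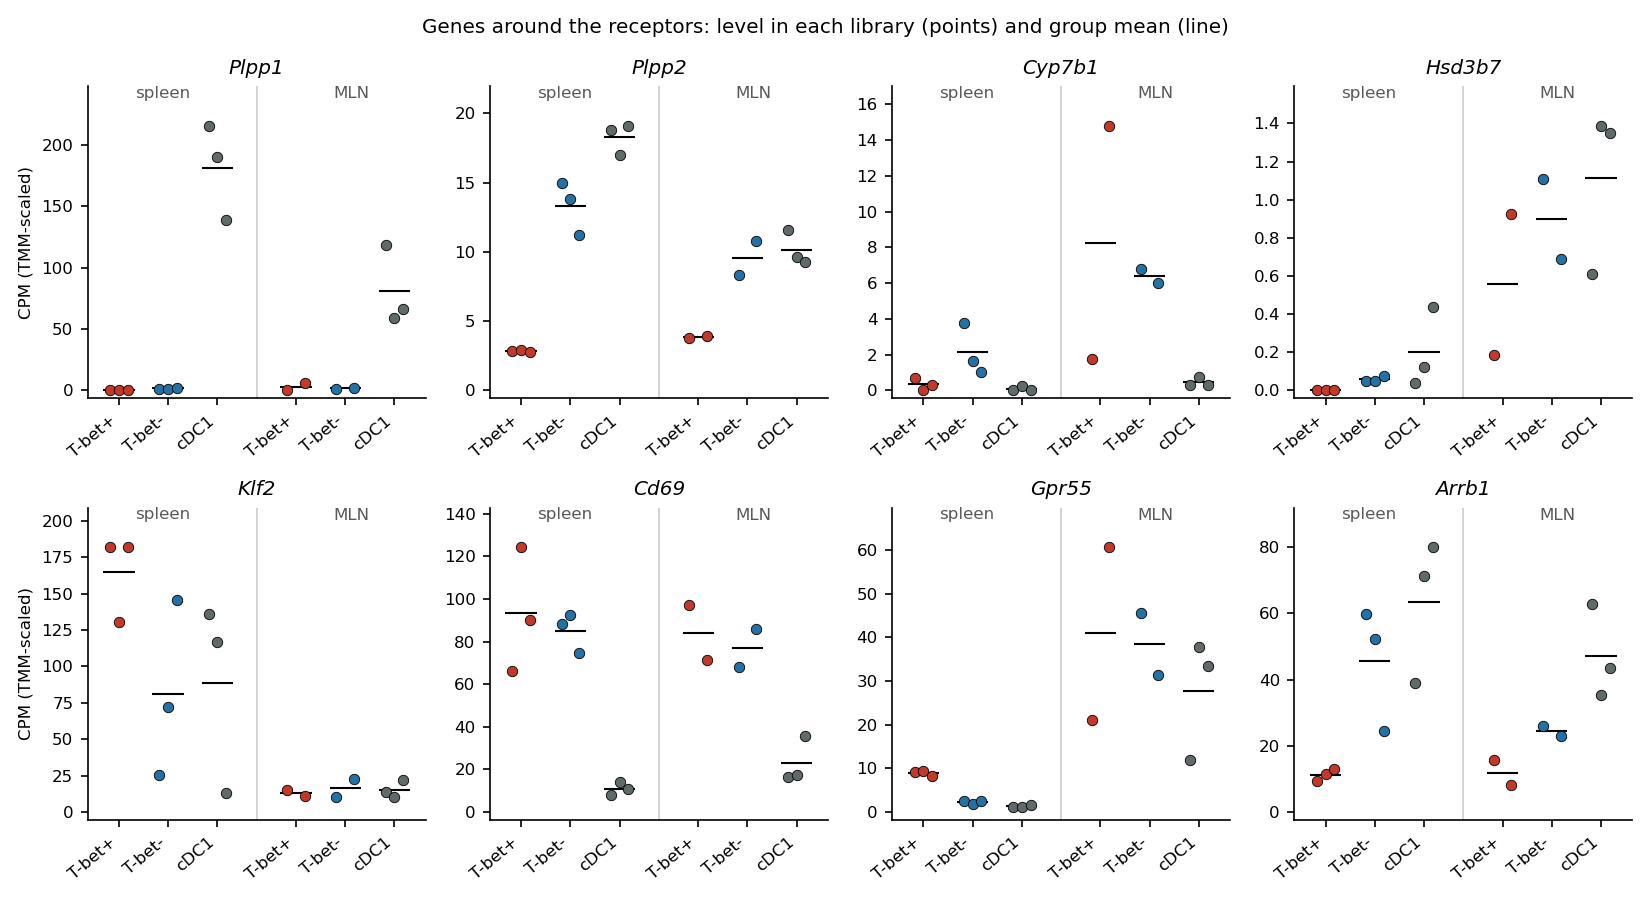
RNA level of 8 ligand and signalling genes in every library, in the layout of the receptor plot (CPM, 1 point for each library, line at the group mean). Plpp1 stands out in cDC1s of both tissues, Cd69 in cDC2s, Cyp7b1 in MLN cDC2s and Gpr55 in all MLN subsets. Klf2 is lower on average in MLN, but spleen cDC1 library 3, at 13.3 CPM, lies within the MLN range.

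Genes whose log2 CPM ran most like each receptor were ranked by Pearson's r over the 16 libraries among 11107 genes; the values describe libraries that share tissue, subset and class, and carry no test. For Gpr183 the leading genes were Cd300lf, Siglece and Stra6l (r = 0.97 each). For S1pr1 the leading named gene was Trip10 (0.96), and for S1pr2 they were Asb13 (0.93), Lrrc45 (0.92) and S1pr1 itself (0.92). S1pr5 ran most like AC163442.1 (0.92), Nfkbiz (0.89) and Rasgrp2 (0.88), the last with r = 0.94 within spleen and 0.42 within MLN, where S1pr5 was at or near 0. S1pr3 and S1pr4 had no close match, with leading values of 0.73 for Mgst1 and 0.75 for Dgcr14.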

How the data were processed

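Gene counts were deposited by the authors as raw counts of uniquely aligned reads (HISAT2 2.1.0, mm10) per GENCODE gene, with the strand setting not given in the sources used here, so reads of overlapping antisense genes may not be told apart. ATAC-seq counts were deposited by the authors as raw counts of uniquely aligned reads (Bowtie2 2.2.5, shifted by 4 and 5 bases) in 150-base windows round MACS2 summits of 74217 peaks called on the replicates together. No values were changed before testing. Counts were fitted with edgeR 4.0.16 in R 4.3.3 (TMM, filterByExpr, quasi-likelihood test, Benjamini-Hochberg adjustment over all features tested): spleen RNA, MLN RNA, both tissues and ATAC each in 1 fit with the subset, or tissue and subset, as the term. CPM and RPKM use TMM-scaled library sizes. Alternatives were DESeq2 1.42.0, its size factors, other filters, the newer dispersion estimate, the GC class, the replicate number as a block and each library left out. The scripts were tested on simulated data. The receptors and the gene, marker and motif lists were chosen with earlier results of these data known. Pathway genes named are, for each list and comparison, those called with the largest changes, plus 7 fixed genes (Sphk1, Sgpl1, Ch25h, Cyp7b1, Hsd3b7, Klf2 and Cd69). Pools of 2 mice are the RNA replicates, and depth limits genes under about 1 CPM.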

Additional observations from a re-analysis of the deposited data

How the results depend on the processing

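Counts of receptors called moved under some alternatives, and unless the construction shows it the cause was not tested. The share of all genes or windows called can move with the setting too and is not given beside most of these counts. The counts therefore do not tell a change in the receptors from a change in calls over all features. Asking for at least 10 counts in every library removes S1pr1 and S1pr5 from the test and left 1 receptor called (not 2) for spleen T-bet+ over T-bet- cDC2s, 2 (not 4) for spleen T-bet+ cDC2s over cDC1s, 1 (not 2) for spleen T-bet- cDC2s over cDC1s, 1 (not 2) for MLN over spleen in cDC1s and 0 (not 1) for MLN over spleen in T-bet+ cDC2s. The newer dispersion estimate gave 1 for spleen T-bet+ over T-bet- cDC2s, 2 (not 1) for MLN T-bet+ cDC2s over cDC1s, 1 (not 0) for MLN over spleen in T-bet- cDC2s and 0 for MLN over spleen in T-bet+ cDC2s. DESeq2 gave 2 for MLN T-bet+ cDC2s over cDC1s, 2 for MLN over spleen in T-bet+ cDC2s and 1 (not 0) for the difference between tissues of T-bet+ and of T-bet- cDC2s over cDC1s. With no filter on low counts the numbers were 1 (not 0) for MLN T-bet+ over T-bet- cDC2s, 3 for MLN T-bet+ cDC2s over cDC1s, 2 for MLN T-bet- cDC2s over cDC1s, 2 for MLN over spleen in each cDC2 subset, and 1, 3 and 2 for the differences between tissues of T-bet+ over T-bet- cDC2s, T-bet+ cDC2s over cDC1s and T-bet- cDC2s over cDC1s. The library class term gave 1 for MLN over spleen in cDC1s and 0 in T-bet+ cDC2s, turned S1pr3 in spleen T-bet+ over T-bet- cDC2s to 0.45, and could not be fitted within MLN, where all libraries share a class.

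Leaving out each library in turn gave 0 to 2 receptors for spleen T-bet+ over T-bet- cDC2s (0 without any T-bet+ library, 1 without T-bet- library 2), 1 to 3 for MLN T-bet+ cDC2s over cDC1s (3 without T-bet+ library 2), 1 to 2 for MLN over spleen in cDC1s, 0 to 2 in T-bet+ cDC2s (0 without MLN T-bet+ library 2 or any spleen T-bet+ library, 2 without spleen T-bet- library 3) and 0 to 1 for the differences between tissues of either cDC2 subset over cDC1s (1 without MLN cDC1 library 1). For ATAC windows it gave 4 to 8 for T-bet+ over T-bet- cDC2s (4 without T-bet+ library 1 or T-bet- library 1), 2 to 8 for T-bet+ cDC2s over cDC1s (2 without T-bet+ library 1, 5 without cDC1 library 1) and 5 to 9 for T-bet- cDC2s over cDC1s (5 without T-bet- library 1 or cDC1 library 2), against 8 in each. In the same order DESeq2 called 3, 5 and 5 windows, windows within 2000 bases of a start site numbered 2, 1 and 1, and windows within 50000 bases whatever the closest gene 16, 30 and 22. An adjusted p under 0.05 with no minimum fold gave 13 for the first and 14 for the last.

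Where leaving out a library leaves 1 in its group, that one is assumed to vary like the other groups. The labels do not say what a shared number stands for, and not every same-numbered pair deviated together from the group means. In spleen RNA the correlations were 0.0997 to 0.135 between T-bet+ cDC2s and cDC1s, -0.038 to 0.008 between the cDC2 subsets and -0.413 to -0.068 between T-bet- cDC2s and cDC1s, so the last did not go best with their own number. In MLN RNA they were -0.077 to 0.382, or 0.026 to 0.382 by the number in the library name, and in ATAC -0.037 to 0.019. With the replicate number as a block, 0 receptors (not 2; S1pr1 adjusted p = 0.0554, S1pr2 0.0754) and 356 genes (not 774) were called for spleen T-bet+ over T-bet- cDC2s, and 539 (not 952) and 515 (not 885) genes for MLN T-bet+ and T-bet- cDC2s over cDC1s. In MLN a block by the number in the library name gave 3 receptors and 2440 genes for T-bet+ cDC2s over cDC1s, 2 receptors and 2477 genes for T-bet- cDC2s over cDC1s, and 130 genes (not 0) and no receptor for T-bet+ over T-bet- cDC2s.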
